A study of Mus musculus with 12 samples.

Results

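The hepatocyte growth factor axis was followed here through 6 genes, each with 1 probe set among the 25428 on the array: the ligand gene Hgf, its receptor gene Met, the activating protease gene Hgfac, the protease inhibitor genes Spint1 and Spint2, and Mst1, which encodes a related ligand. They were picked by name for their place in the pathway, with earlier results of these data known, and all 6 were measured. Expression came from 12 Affymetrix arrays of mouse liver sinusoidal endothelial cells, the cells that line the capillaries of the liver lobule, isolated with magnetic beads against CD146. Of these arrays, 6 came from control mice, labelled Ctrl, and no source used here names their alleles. The other 6 came from NICD-OE-HEC mice, called NICD_OE here. These carry Clec4g-Cre(tg/wt) and the Rosa26-N1ICD-IRES-GFP allele, so that Cre, driven by a gene of sinusoidal endothelium, switches on the Notch1 intracellular domain, the part of the receptor that acts in the nucleus. Each sample pooled 3 mice, and the labels number the samples of a group as biological replicates. No source used here gives the age of the mice.

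Hepatocyte growth factor is a secreted protein of the plasminogen family that leaves the cell as an inactive single chain. Serine proteases such as the product of Hgfac cut it into its active form, and the Kunitz-type inhibitors encoded by Spint1 and Spint2 restrain those proteases at the cell surface. The active ligand binds the receptor tyrosine kinase Met. In liver the ligand comes mainly from nonparenchymal cells, including sinusoidal endothelium and stellate cells, and acts on Met of hepatocytes, where it promotes growth after injury. Mst1 encodes macrophage-stimulating protein, a relative made by hepatocytes that binds a different kinase, Mst1r.

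The ligand gene Hgf is where the largest difference among the members lay, and the stretch before its first annotated start is shown for that reason. It is taken from RefSeq (GRCm38.p6), at chr5:16553245-16553494 on the plus strand, and ends at the base before the start. The capitals mark a match to the core of the site bound by Rbpj, the DNA-binding partner of the Notch intracellular domain, searched as TGGGAA on both strands.
Hgf: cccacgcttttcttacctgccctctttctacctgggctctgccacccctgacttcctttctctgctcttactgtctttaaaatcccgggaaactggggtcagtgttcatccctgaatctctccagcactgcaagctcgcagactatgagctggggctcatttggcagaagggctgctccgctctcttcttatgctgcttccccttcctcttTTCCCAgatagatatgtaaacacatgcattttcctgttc
The match lies on the minus strand at positions -39 to -34, counted from the start. The window of the same length before a second annotated Hgf start, at chr5:16553651-16553900, held none. Met was the other member whose window held this core, at positions -27 to -22, and 30 bases around it are shown for comparison (chr6:17463918-17463947, plus strand).
Met: gcagggcgcgtgTGGGAAggggcggagcag
Of the 32851 windows of 250 bases in the RefSeq table, 21.6% hold this core, as do 2 of the 7 windows of the members. Both HEY site forms (CACGTG and CACGCG) and the AP-1 site (TGANTCA) were also searched, and none was found in either Hgf window. CACGTG was in 1 member window and 6.02% of all windows, CACGCG in 2 and 7.62%, and TGANTCA in 1 and 6.75%. All of these matches are in Met except for 1 CACGCG in Spint1, and the minus-strand CACGCG of Met adjoins its Rbpj core. The matches describe letters only; binding was not measured.

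Values are log2 RMA expression values, and every array had a median of 3.67. They carry no detection calls, so a level under that median is not separated here from background. Differences are NICD_OE minus control on the log2 scale, tested with limma over all probe sets, and a gene counts as called at a Benjamini-Hochberg adjusted p under 0.05. On a second principal component holding 16.4% of the variance, control 2 (-48.5) and NICD_OE 4 (-30.3) stood apart from the rest (-8.51 to 22.3). All 12 sinusoidal endothelial markers were high, with control means from 10.08 to 12.34 for Clec4g; 8 of them fell and 2 rose in NICD_OE. Among markers of other cells, both group means lay under the array median for 1 neutrophil, 2 lymphocyte, 1 cholangiocyte and 1 mesothelial marker. For hepatocyte, stellate and Kupffer cell markers that number was 0. Hepatocyte markers rose for 7 of 12 genes, neutrophil markers for 8 of 10 and cholangiocyte markers for 5 of 7, and none of these fell. Stellate markers gave 2 rises and 1 fall among 11, Kupffer cell markers 1 rise among 10, mesothelial markers 1 rise (the epithelial keratin Krt8) among 6. Among 7 lymphocyte markers limma called 0, and 0 had an unadjusted p under 0.05.

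Of the 6 members, Hgf fell, Met and Spint2 rose, and Hgfac, Spint1 and Mst1 were not called. That is 3 of 6 called, against 10.5% of all probe sets in either direction; 2 rose, against 4.89% of all, and 1 fell, against 5.59%. Only for Hgf were the groups apart without overlap, as they were for 6.68% of all probe sets. The median difference was 0.28 over the members and -0.01 over all probe sets. With so few genes, chosen with earlier results of these data known, these counts describe the members and no more.

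**Figure D1:**
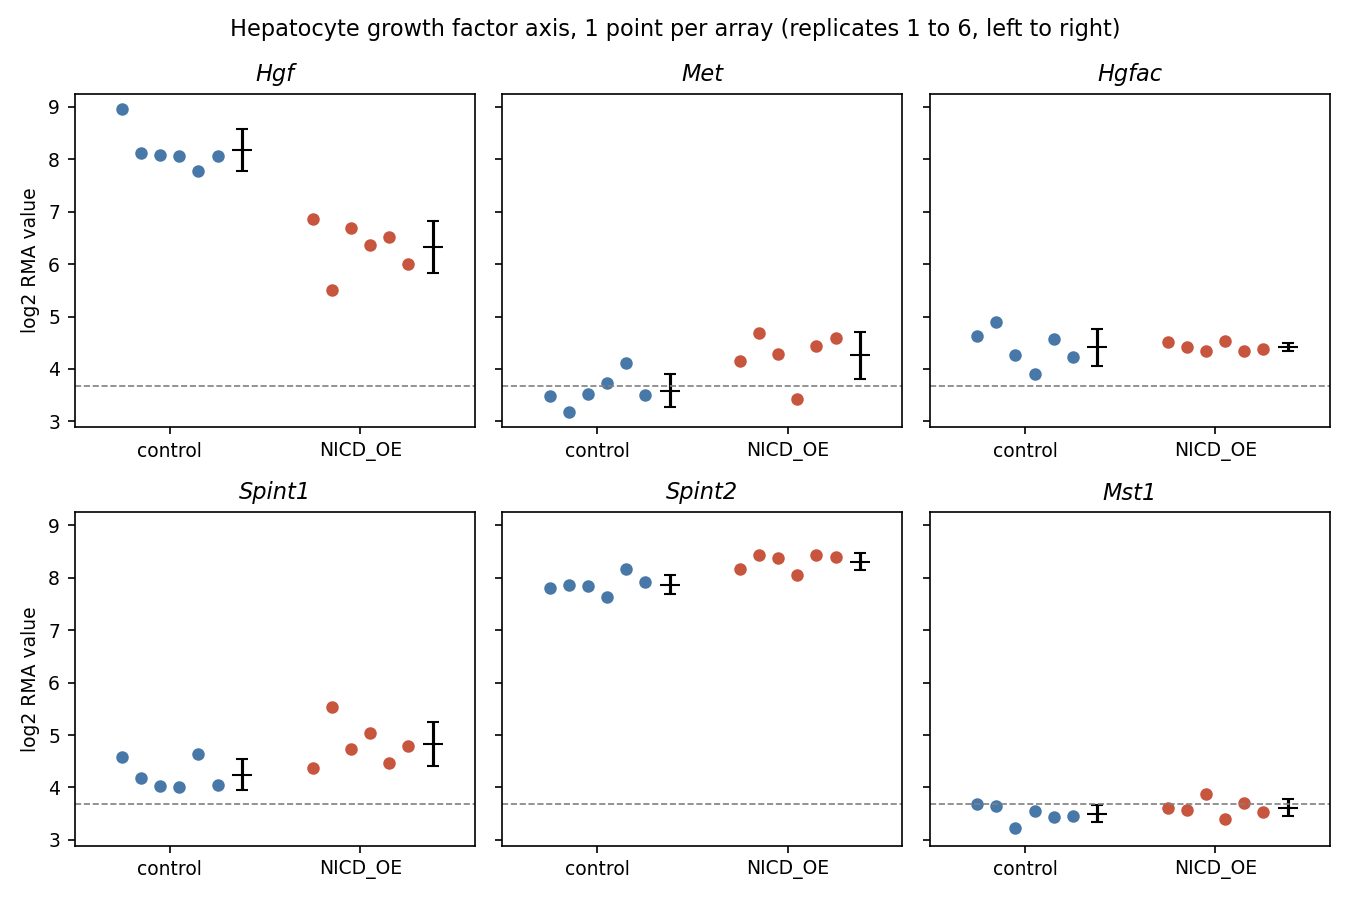
Log2 RMA values (vertical axis, shared by all panels) of the 6 members on each of 6 control and 6 NICD_OE arrays, 1 point per array, with the mean and SD of each group as a black bar and the array median of 3.67 as a dashed line. Hgf is the panel whose groups are apart, with every control at 7.78 or above and every NICD_OE array at 6.86 or below; Met in control and Mst1 in both groups lie around the dashed line.

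The ligand gene Hgf fell. In control it ranged from 7.78 to 8.97 with a median of 8.07, and in NICD_OE from 5.51 to 6.86 with a median of 6.44. The groups were separated by a gap, and every array of both groups lay well above the array median. Control 1 was the highest of all, at 8.97, while the other controls lay between 7.78 and 8.13. NICD_OE 2 (5.51) and NICD_OE 6 (6.00) were the lowest. The mean went from 8.18 ± 0.41 to 6.32 ± 0.50 (SD, n = 6 each), a log2 difference of -1.86 (SE 0.23, 95% interval -2.34 to -1.37, adjusted p = 4.98e-05). On the linear scale this is 3.62-fold lower, with an interval of 2.59-fold to 5.05-fold. In size it exceeded the differences of 99.6% of probe sets and ranked 33rd among the 1422 that fell. Permuting the 12 labels in full, an exact permutation test (two-sided) gave p = 0.00216, the smallest possible here. Without control 1 the difference was -1.70, and without NICD_OE 2 it was -1.69.

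Stellate cells are another source of hepatocyte growth factor in liver, so their markers are given beside this fall. The summed level of the 11 measured stellate markers, as a log2 value, ran from 9.19 to 10.13 in control and from 9.58 to 10.02 in NICD_OE, and the groups overlapped. Lrat, which esterifies retinol for storage in stellate cells, fell by 0.75 (adjusted p = 0.00334). The collagen genes Col1a1 and Col3a1 rose by 2.49 and 2.11. Ecm1 had the highest mean of the 11 in both groups, 8.69 in control and 8.30 in NICD_OE. It weighed most in the sum and was not called (limma, adjusted p = 0.114). Without both collagen genes, a choice made after seeing the data, the other 9 were summed again. That sum ran from 9.06 to 9.96 in control (median 9.30) and from 8.87 to 9.35 in NICD_OE (median 9.16). The median was thus lower in NICD_OE without the collagen genes and higher with them (9.84 against 9.45). The summed level of the sinusoidal endothelial markers lay from 14.87 to 15.18 in control and from 14.52 to 14.76 in NICD_OE. The part of either cell type in the Hgf result was not tested, and in cells measured in bulk, fewer producing cells and less RNA per cell cannot be told apart.

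The receptor gene Met rose from a low level. In control it ranged from 3.18 to 4.12 (median 3.51), with 2 of 6 arrays above the array median, and in NICD_OE from 3.44 to 4.68 (median 4.36), with 5 of 6 above it. The groups overlapped: NICD_OE 4 (3.44) lay below most controls, and control 5 (4.12) above the other controls. The mean moved from 3.59 ± 0.31 to 4.26 ± 0.45 (SD, n = 6 each), a log2 difference of 0.68 (SE 0.20, 95% interval 0.26 to 1.10, adjusted p = 0.0379). The control mean lies under the array median and so is not separated from background. The call was lost when any 1 of 10 arrays was left out (control 1, 2, 3, 4 or 6, or NICD_OE 1, 2, 3, 5 or 6), with an adjusted p of 0.0510 to 0.0863. Without control 2 and NICD_OE 4, which stood apart, the difference was 0.76 (adjusted p = 0.00313), a fit chosen after seeing the data.

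Of the activation step, Hgfac, which encodes the hepatocyte growth factor activator, was not called. It lay between 3.91 and 4.89 in control (median 4.41) and between 4.33 and 4.53 in NICD_OE (median 4.40). The NICD_OE arrays fell within the control range, and the controls were more spread, with SDs of 0.35 against 0.08. The log2 difference was 0.01 (SE 0.14, 95% interval -0.29 to 0.30, adjusted p = 0.989).

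Among the 9 listed proteases that can cut the precursor or take part in its activation, 2 rose, 0 fell and 7 were not called (22.2% called, against 10.5% of all probe sets), with a median of 0.24. St14, which encodes matriptase, an epithelial membrane protease, rose from 3.84 ± 0.38 to 4.63 ± 0.35 (SD, n = 6 each; adjusted p = 0.0115), and its groups overlapped between 4.22 and 4.38. Plat, the tissue plasminogen activator gene, rose by 1.64 with no overlap, from at most 5.47 in control to at least 6.22 in NICD_OE. F12, the gene of a coagulation protease made in hepatocytes, differed by 0.42 and missed the threshold (adjusted p = 0.0510). The urokinase gene Plau, the hepsin gene Hpn, Plg, Klkb1 and Tmprss13 differed by 0.00, 0.24, 0.49, -0.01 and 0.00 and were not called. For Tmprss13 and Klkb1 both group means lay under the array median.

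Of the inhibitor genes, Spint2 rose and Spint1 was not called. Spint2, which encodes hepatocyte growth factor activator inhibitor type 2, ranged from 7.62 to 8.17 in control (median 7.85) and from 8.06 to 8.43 in NICD_OE (median 8.38). The groups overlapped through control 5 at 8.17, which lay above NICD_OE 4 at 8.06. The mean rose from 7.87 ± 0.18 to 8.31 ± 0.16 (SD, n = 6 each), 1.35-fold (log2 difference 0.44, SE 0.10, 95% interval 0.22 to 0.66, adjusted p = 0.0113). It kept its call whichever of the 12 arrays was left out, with adjusted p from 0.00456 to 0.0303.

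Spint1, the type 1 inhibitor gene, ranged from 4.00 to 4.64 in control (median 4.11) and from 4.37 to 5.54 in NICD_OE (median 4.76). Control 1 and control 5 lay among the lower NICD_OE arrays, and NICD_OE 2 was the highest at 5.54. The control mean of 4.25 ± 0.29 compared with 4.82 ± 0.43 in NICD_OE (SD, n = 6 each), a log2 difference of 0.58 (SE 0.19, 95% interval 0.18 to 0.98, adjusted p = 0.0621), which missed the threshold. It passed when control 1, control 5, NICD_OE 1 or NICD_OE 5 was left out (adjusted p = 0.0477, 0.0420, 0.0315 and 0.0469). The other listed protease inhibitors, Serpina5, Serpinf2 and Serpinc1, differed by 0.24, 0.03 and 0.60 without a call.

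Spint1, Spint2, Met and St14 are expressed in epithelia, so the epithelial markers are given beside them. Spint2 had a control mean of 7.87. The highest control mean was 5.69 among the cholangiocyte markers, for Cdh1, and 9.59 among the hepatocyte markers, for Alb. Levels of different probe sets were not used to assign a source. The summed level of 7 measured cholangiocyte markers ran from 6.89 to 7.46 in control and from 7.66 to 8.30 in NICD_OE, without overlap, and the largest rises among them were of Cdh1 (1.10), Epcam (0.97) and Krt19 (0.84). Of the 6 mesothelial markers, Krt8 alone rose. The other 5 summed to 6.41 to 6.91 in control and 6.50 to 6.86 in NICD_OE. Krt19, the defining bile duct keratin, had a control mean of 3.55, under the array median. For hepatocytes the summed level of 12 markers ran from 10.84 to 12.21 in control and from 11.78 to 13.13 in NICD_OE, with overlap. Neutrophil markers had a summed level of 6.86 to 8.86 in control against 9.10 to 11.11 in NICD_OE. The part of these cells in the rises of Met, Spint2 and St14 was not tested.

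**Figure D2:**
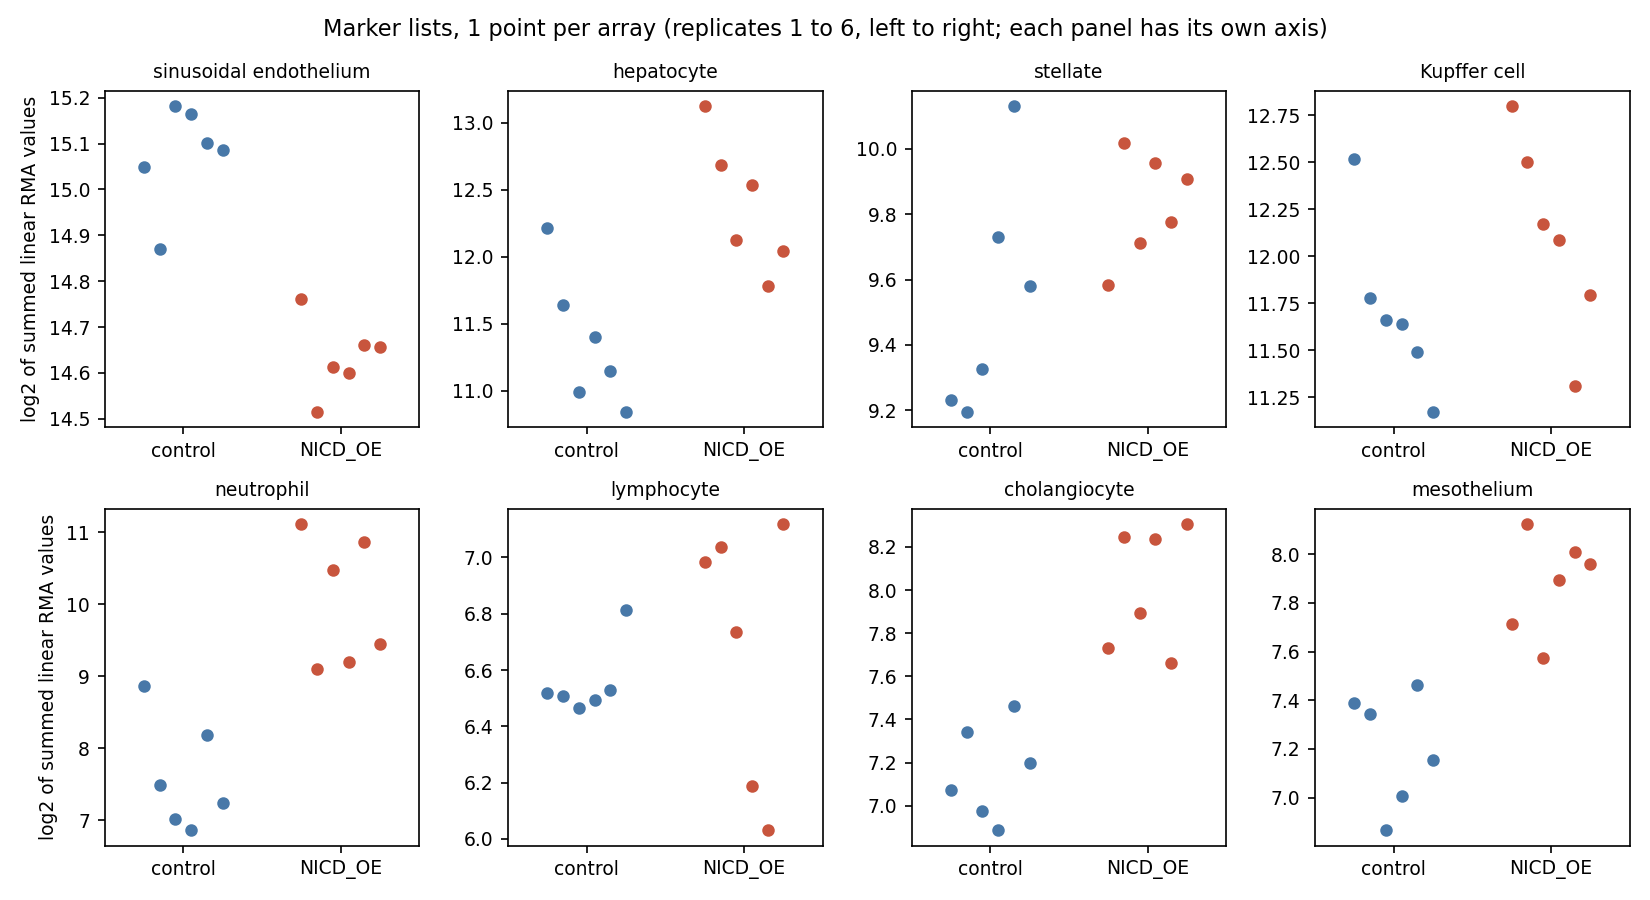
Log2 of the summed linear RMA values of each marker list (vertical axes, separate for each panel) on 6 control and 6 NICD_OE arrays, 1 point per array. The groups do not overlap for the sinusoidal endothelial (lower in NICD_OE), neutrophil, cholangiocyte and mesothelial lists (higher in NICD_OE), while the stellate sums overlap between 9.58 and 10.02. The mesothelial sums overlap when Krt8 is left out.

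The related ligand gene Mst1 was not called and was at a level not separated from background. It lay between 3.22 and 3.69 in control (median 3.50) and between 3.39 and 3.87 in NICD_OE (median 3.59). The groups overlapped, with 1 control and 2 NICD_OE arrays above the array median. The log2 difference was 0.11 (SE 0.10, 95% interval -0.11 to 0.33, adjusted p = 0.615). Its receptor gene Mst1r was as near the array median, with 3.52 ± 0.22 in the controls and 3.50 ± 0.15 in the NICD_OE arrays (SD, n = 6 each; adjusted p = 0.963).

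Around Met, the genes of its partners at the membrane changed in both directions. Of 14 listed receptors and co-receptors, Met included, 7 rose, 3 fell and 4 were not called (71.4% called, against 10.5% of all probe sets), with a median of 0.49. Among heparan sulfate proteoglycans, which can hold the ligand at the cell surface, the syndecan genes Sdc1, Sdc4 and Sdc2 rose by 1.00, 0.87 and 0.68, and the glypican gene Gpc1 fell by 1.16. Sdc1 went from at most 5.84 in control to at least 6.44 in NICD_OE, and Gpc1 from at least 6.01 to at most 5.33, so neither overlapped. Plxnb1, a semaphorin receptor that can pair with Met, rose by 0.84 from a control mean of 3.33, under the array median. Both chains of the laminin-binding integrin that can associate with Met rose, Itgb4 by 0.66 and Itga6 by 0.45. The neuropilin genes Nrp1 and Nrp2 fell by 0.68 and 0.61. Cd44, a hyaluronan receptor that can act as a Met co-receptor, differed by 0.27 (adjusted p = 0.374), and neither it nor Icam1 (0.53), Plxnb2 (0.13) or Mst1r was called.

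**Figure D3:**
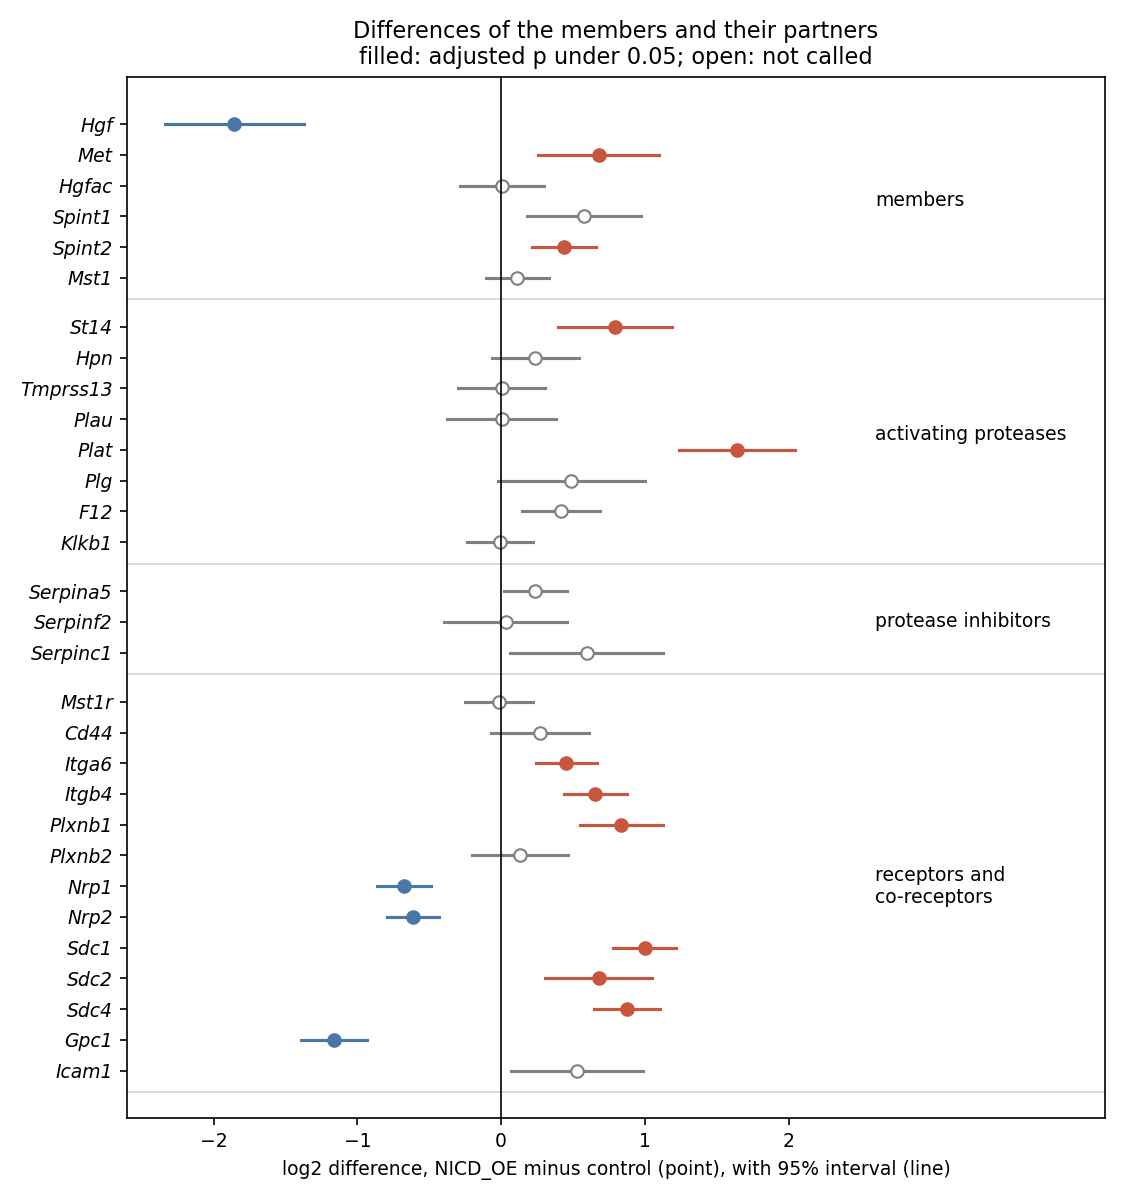
Log2 difference, NICD_OE minus control (horizontal axis; 6 arrays per group), with its 95% interval for the 6 members and the listed proteases, inhibitors, receptors and co-receptors; filled points passed an adjusted p of 0.05 and open points did not. Hgf at -1.86 lies farthest to the left and Plat at 1.64 farthest to the right.

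Of 16 measured adaptors and effectors that carry the Met signal inside the cell, 1 rose, 1 fell and 14 were not called, with a median of 0.01. That is 12.5% called, near the 10.5% of all probe sets. Src, a kinase, rose by 0.41 (adjusted p = 0.0150) and Plcg1, a phospholipase, fell by 0.45 (adjusted p = 0.0367). Of 11 measured negative regulators 1 rose, 2 fell and 8 were not called (27.3% called), with a median of 0.07. Lrig1, whose product promotes degradation of receptor kinases including Met, rose from 4.79 ± 0.24 to 6.42 ± 0.26 (SD, n = 6 each), a difference of 1.63 (SE 0.14, adjusted p = 1.31e-06), with no overlap between at most 5.15 in control and at least 6.02 in NICD_OE. The phosphatase gene Ptprb fell by 0.42 and the endocytic adaptor gene Sh3kbp1 by 0.37.

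Genes tied to Hgf induction in endothelium went both ways. Of 15 listed, 6 rose, 3 fell and 6 were not called (60.0% called, against 10.5% of all probe sets), with a median of 0.32. The Wnt ligand gene Wnt2, described with Hgf as a growth signal from sinusoidal endothelium, fell by 3.28, and the chemokine receptor gene Cxcr4 rose by 2.90. Il1b, a cytokine known to induce Hgf and made by myeloid cells, rose by 1.18, and the transcription factor gene Cebpb by 0.66. Kdr, the VEGF receptor placed upstream of both growth signals in liver regeneration, fell by 0.60 (adjusted p = 3.09e-04). Id1, the regulator placed between that receptor and Hgf, differed by 0.65 and missed the threshold (adjusted p = 0.0648), and the chemokine receptor gene Ackr3 rose by 0.59 (adjusted p = 0.0162). Kdr, Id1 and Ackr3 were named for these roles after their values were seen.

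Of 12 genes that respond to Met or ERK signalling in other cells, 4 rose, 1 fell and 7 were not called (41.7% called, against 10.5% of all probe sets), with a median of -0.00. Egr1 and Fos, immediate early transcription factor genes, rose by 2.23 and 1.95, the metalloproteinase gene Mmp9 by 1.72 and the urokinase receptor gene Plaur by 1.61. Ets1, named after its value was seen, fell by 0.31. Mmp9 is also a neutrophil granule gene, and Plaur, like Il1b above, is also a myeloid gene. All 3 genes rose, as did the neutrophil marker sums given above. Genes and sums were not compared array by array, and the part of neutrophils was not tested. Among the feedback genes of ERK signalling, Spry2, Spry4 and Dusp6, named after their values were seen, the differences were -0.07, -0.01 and 0.26 without a call. Over all 7 pathway lists, 77 measured genes other than the members gave 20 rises and 10 falls, or 39.0% called, with a median of 0.10. These lists were drawn up with results of these data known, so that share is no evidence about the pathway.

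Likeness to Hgf was measured over the 12 arrays as the root mean square distance between log2 profiles, each gene centred on its own mean. The nearest of 20620 ranked genes was Flrt1, a gene of a fibronectin and leucine-rich repeat membrane protein, at 0.383. Next came Emilin1 (0.386), of an elastic fibre glycoprotein, Ang (0.399), of the ribonuclease angiogenin, Slc25a37 (0.409), of a mitochondrial iron importer, and Adam23 (0.413), of a membrane protein of the ADAM family. By comparison Hgf itself deviated from its mean by 1.02, and its median distance from all ranked genes was 1.03. These 5 fell, by 2.11, 1.45, 1.64, 1.62 and 1.44, a direction set by their choice for nearness to Hgf. On control 1, where Hgf stood 1.72 above its mean, the 5 stood 0.70 to 1.05 above theirs. On NICD_OE 2, Hgf and Ang were both far from their means, at -1.74 and -1.75. For Spint2 the nearest gene was Ppic, a cyclophilin gene, at 0.0973 against a deviation of 0.267 of its own, followed by Ube2s, Gstm5, Id2 and Fxyd5. For Met it was Gpc6, a glypican gene, at 0.192 against 0.490, followed by Rps12-ps4, Car7, Slc39a4 and Igf2r.

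**Figure D4:**
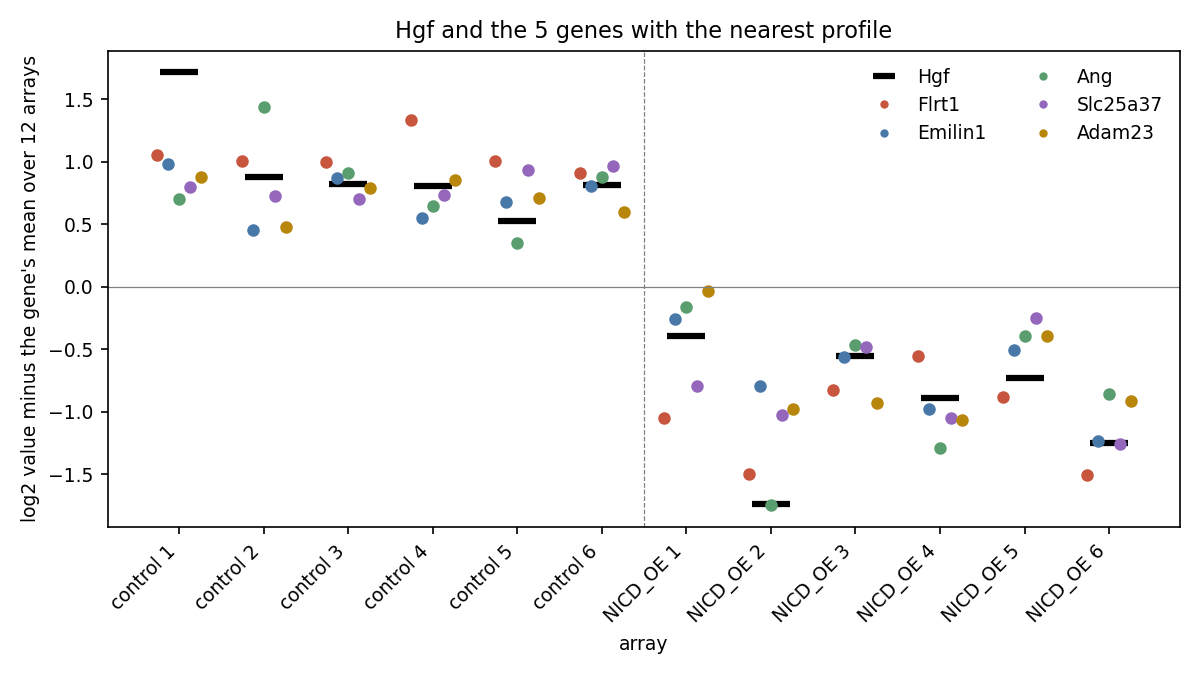
Log2 value minus each gene's mean over the 12 arrays (vertical axis) on 6 control and 6 NICD_OE arrays (horizontal axis) for Hgf, drawn as black bars, and the 5 genes nearest to it, drawn as points. All 6 genes are above 0 on every control and below 0 on every NICD_OE array. The 5 were picked for nearness to Hgf, so the shared pattern follows largely from that choice.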

How the data were processed

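Total RNA of 12 samples of mouse liver sinusoidal endothelial cells was hybridized to 12 Affymetrix arrays. Values were taken as the authors deposited them, on the log2 scale after RMA with 1 value for each probe set, per the submitters' processing notes. No source used here names the software, chip definition or genome build. Gene names came from the platform annotation (24705 of 25428 probe sets named), and the Entrez identifiers of all 6 members matched RefSeq (GRCm38.p6), from which the promoter sequences also came. The arrays share their quantiles, so a shift of most genes in 1 direction is not visible. Several symbols on the lists are not analysed here.

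NICD_OE minus control was fitted with limma 3.58.1 in R 4.3.3 (lmFit, eBayes, no covariates, no filter) over all probe sets, and two-sided p-values were adjusted by Benjamini-Hochberg. SE and 95% intervals are limma's, and intervals are not adjusted. The array number, 6 per group, limits the precision; the labels call the samples biological replicates. The fit was tested on simulated data. Arrays of a group correlated at 0.976 to 0.992, and none was a duplicate. Members, lists and the naming rule were chosen with earlier results of these data known: of a list, up to 4 called genes by size were named, or the 2 largest differences; of the proteases, inhibitors and receptors, any measured gene; and of a marker list, up to 3 at the highest level and 3 called by size. Genes of a list named outside this rule are marked as named after their values were seen. Alternatives were rescaling, filters on dim probe sets, an intensity trend, array weights, a replicate block, each array left out, a fold threshold and exact permutation.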

Additional observations from a re-analysis of the deposited data

Results flagged for a closer look

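Control 1 stood apart from the other controls for Hgf, at 8.97 against 7.78 to 8.13, a gap of 0.705 of the range of the 6 controls. Of 12 sets of a member in a group this was the 1 set with such an array, and chance alone gives about 1 in 20. Without control 1 the Hgf difference was -1.70 (limma, adjusted p = 6.79e-05).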

How the results depend on the processing

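Hgf and Spint2 kept their direction and call under all 21 alternatives tried for each, a number that leaves out the fold threshold. With a log2 difference of at least 1 required, Hgf stayed called and Spint2, at 0.44, did not. With each array left out in turn, Hgf lay between -1.96 and -1.69. Met kept its direction, at 0.59 to 0.84 with each array left out in turn, but kept its call in 2 of those 12 fits, and lost it with the replicate block (0.68, adjusted p = 0.0652). Spint1 lay between 0.44 and 0.67 in such fits (adjusted p from 0.0315 to 0.134). It became called without the dimmest 50 percent of probe sets (0.58, adjusted p = 0.0390) and with array weights (0.62, adjusted p = 0.0415). Its exact permutation p for the same 0.58, not adjusted over genes, was 0.0195. Hgfac, near 0, changed sign among the fits with an array left out, from -0.0944 to 0.102, with no call. Mst1 was not called in any of 20 alternatives and was not among the brighter 50 percent of probe sets. Members called higher numbered 1 to 3 in such fits, were 1 with the replicate block, and were 0 with a log2 difference of at least 1. That threshold left 330 probe sets higher and 201 lower. Replicate numbers were not taken as pairs, since the labels do not call them pairs. The arrays do not settle whether they are. Of 6 controls, 3 correlated best with their own number in NICD_OE (deviations from group means, same-number correlations from -0.10 to 0.22). The cause of these changes was not tested. Low signal limits Met and Mst1, whose control means lie under the array median.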

Other observations

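Control 5 had the highest control value of Met (4.12), Spint1 (4.64) and Spint2 (8.17), and also the highest control sum of cholangiocyte markers (7.46) and of stellate markers (10.13), with the lowest control Hgf (7.78). Control 1, with the highest Hgf (8.97), had a stellate sum of 9.23. It also had the highest control sums of hepatocyte (12.21), Kupffer cell (12.52) and neutrophil markers (8.86). Among NICD_OE arrays, NICD_OE 2 had the highest Met (4.68), Spint1 (5.54) and Spint2 (8.43) and the lowest Hgf (5.51). Its stellate sum (10.02) was the highest of the group, while its cholangiocyte sum of 8.25 lay below that of NICD_OE 6 (8.30). NICD_OE 1, with the highest Hgf of the group (6.86), had a stellate sum of 9.58. It also had the highest NICD_OE sums of hepatocyte (13.13), Kupffer cell (12.80) and neutrophil markers (11.11). NICD_OE 4 had the lowest Met (3.44) and Spint2 (8.06) but a Spint1 of 5.04, below NICD_OE 2 alone, and a cholangiocyte sum of 8.24. These arrays were singled out after their values were seen.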
